A study of Homo sapiens with 8 samples.

Results

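The interaction of overexpressed MYC with Zab was examined by RNA-seq in U2OS, an established human osteosarcoma cell line, using all 8 of the 8 libraries of the series. The libraries fall into 4 groups of 2 by their genotype label: WT, with neither factor, MYC, labelled MYC O/E (overexpression), Zab, and Zab+MYC, which carries Zab together with MYC overexpression. The series' design text spells Zab as Zαβ. The labels do not describe the constructs, their promoters, or whether a line is 1 clone, and they name no separate cultures for the 2 libraries of a group. For each of 9628 genes tested, of 19414 in the tables, the question was whether the MYC effect differed with and without Zab, that is (Zab+MYC minus Zab) minus (MYC minus WT). This difference of differences is called the interaction below. It is given in log2 of (CPM + 2), where CPM is a library's tag count scaled to a common total of exon tags, and it is below 0 where the MYC effect is lower with Zab than without it. A gene was called when the limma adjusted p of its interaction was under 0.05. The MYC effect without Zab and the MYC effect with Zab are the parts of that contrast and carry no test of their own here.

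MYC is a transcription factor that binds DNA as a dimer with MAX, most often at the E-box CACGTG, and is known for raising the genes of ribosome production, translation and biosynthesis and for lowering genes of adhesion, matrix and differentiation. Zαβ in general use means the paired Z domains at the start of the longer form of ADAR1, the RNA-editing enzyme encoded by ADAR. Such domains hold nucleic acids in the left-handed Z form, in DNA or in double-stranded RNA. ADAR1 is also known for keeping the cell's own double-stranded RNA from sensors such as MDA5 and PKR, which otherwise set off the interferon response. FACT, named in the series title, is a histone chaperone made of SUPT16H and SSRP1 that opens nucleosomes in front of RNA polymerase.

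Libraries held 686992 to 1326166 exon tags, and 13280 to 14647 genes had a tag in any given library. Coding exons took 60.6% and 60.9% of the tags in the Zab libraries and 69.1% to 76.1% in the other 6. The WT pair differed beyond counting noise over genes with at least 40 tags in the pair (chi-square per degree of freedom 1.051, p = 0.0017), while the MYC, Zab and Zab+MYC pairs did not at that limit (0.995, 1.004 and 1.011, p = 0.61, 0.41 and 0.26). Among genes with at least 1000 tags in the pair the Zab and Zab+MYC pairs did differ (chi-square per degree of freedom 1.277 and 1.421, p = 0.0064 and 2.8e-05), and the MYC pair did not (1.056, p = 0.22). The pairs were kept as 2 libraries each, but p-values therefore measure little more than counting error, and the size of an interaction deserves as much weight as its call. Counted as 1 sample each, the 4 pairs would allow no test. VIM, an intermediate filament protein of mesenchymal cells, stood at 4820 to 7288 CPM, while TWIST1 was at 0 in every library and the osteoblast markers SP7, BGLAP and ALPL did not pass 7.09 CPM in any. RUNX2, the lineage factor of osteoblasts, was present at 22 and 16.4 CPM in WT and 5.5 to 11.5 CPM elsewhere. CDKN2A, known to be near silent in this line, was at 0 throughout. TERT, also known to be near silent there, was at 0 CPM in WT and at 0.468 and 0 in MYC. It stood at 2.15 and 0 CPM in Zab and at 1.95 and 4.96 in Zab+MYC. Summed blood markers did not pass 6.56 CPM and summed endothelial markers did not pass 6.45 CPM. Summed epithelial markers stood at 42.8 and 44.4 CPM in WT, of which KRT14 made 23.9 and 29.6, and at 2.81 to 12.9 CPM elsewhere. Summed neuron markers, most of them TUBB3, a tubulin that other cell types also make, stood at 226 to 235 CPM in WT, 64.7 to 73.7 in MYC, 148 to 149 in Zab and 92.9 to 119 in Zab+MYC. The part of these marker sums in the results was not tested. In bulk RNA, fewer cells of a type and less RNA per cell cannot be told apart.

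The levels of MYC and of ADAR themselves differed between the groups that carry them. The MYC transcript measured 72.3 and 94.5 CPM in WT, 1241 and 1295 with MYC, 229 and 194 with Zab, and 707 and 705 with both, that is in Zab+MYC. The groups do not overlap, and MYC tags in Zab+MYC lay between those of Zab and those of MYC. The MYC effect on its own transcript was 3.91 without Zab and 1.73 with Zab, an interaction of -2.17 ± 0.13 (SE, limma adjusted p = 4.3e-24). ADAR, at chromosome 1 from 154554534 to 154578729 (hg19), measured 264 and 269 CPM in WT, 248 and 231 with MYC, 6000 and 6192 with Zab, and 1068 and 1019 with both. It was high in both groups labelled for Zab and lower in Zab+MYC than in Zab. Its MYC effect was -0.15 without Zab and -2.54 with it, an interaction of -2.39 ± 0.08 (limma adjusted p = 1e-37). The transcript on which ADAR was counted was not the same in every library (3 in all). Introduced and endogenous transcripts are not separated, so neither value measures a construct alone. A smaller gain in MYC tags and fewer ADAR tags thus go with every result below for Zab+MYC, and their part in these results was not tested.

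**Figure D1:**
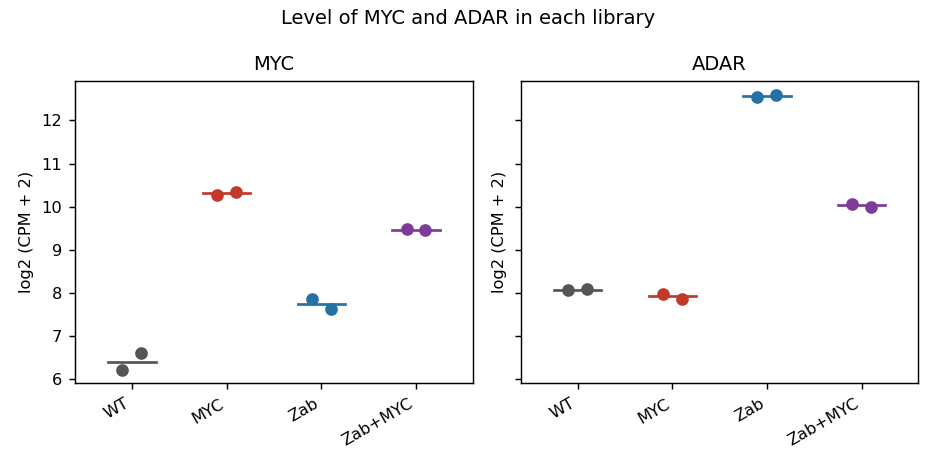
Level of MYC (left) and ADAR (right) in log2 of (CPM + 2) in each of the 8 libraries. Points are libraries, short lines are the mean of the 2 libraries of a group. MYC is highest in the MYC group and second in Zab+MYC, and ADAR is highest in Zab and second in Zab+MYC.

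The FACT subunits did not show an interaction past the threshold. SUPT16H measured 86.2 and 92.4 CPM in WT, 116 and 118 with MYC, 82.5 and 100 with Zab, and 107 and 82.9 with both. The MYC effect was 0.38 without Zab and 0.05 with it, and the interaction of -0.33 ± 0.22 was not called (limma adjusted p = 0.27). SSRP1 measured 259 and 203 CPM in WT, 302 and 292 with MYC, 193 and 184 with Zab, and 238 and 240 with both. Its MYC effects of 0.37 and 0.34 gave an interaction of -0.03 ± 0.15 (limma adjusted p = 0.91). For SUPT16H only the MYC libraries lay outside the range of the other 6, and for SSRP1 the WT and Zab+MYC libraries overlap.

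Across the transcriptome, MYC effects were smaller with Zab than without it. Without Zab, 5184 of 9628 genes differed at least 1.5-fold between MYC and WT, and 2948 at least 2-fold. With Zab, 2486 genes differed at least 1.5-fold between Zab+MYC and Zab, and 725 at least 2-fold. The 2 effects share no library. Across all genes tested they went together with a Pearson r of 0.669 and a Spearman rho of 0.675, and the orthogonal slope of the effect with Zab on that without it was 0.426. The slope was 0.428 from the replicate 1 libraries alone and 0.436 from the replicate 2 libraries alone, and 0.41 among the 4062 genes with a mean of at least 50 CPM, where r was 0.752. Genes are not independent replicates, so these values describe the 8 libraries only. The MYC transcript's own effect with Zab was 0.444 of its effect without Zab on the same log2 scale. That value is a ratio for 1 gene and not a slope across genes, and its part in the slope was not tested.

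The interaction was called for 2701 genes, or 28.1% of those tested, with 1394 above 0 (14.5%) and 1307 below 0 (13.6%). Of these, 1418 (14.7%) also reached 2-fold, 906 above 0 (9.41%) and 512 below 0 (5.32%). A set of 1109 genes, 495 above 0 and 614 below, was also called by edgeR, by DESeq2 and in all 8 fits that left out 1 library. DESeq2 itself called 1114 genes (11.6%) and edgeR 2732 (28.4%). The even split of directions depends on scaling. The share above 0 was 51.6% with TMM factors, 61.6% with library totals and 71.3% on the authors' deposited scale, where the median interaction of all genes was higher by 0.209. No gene that was called both ways changed its sign. On the linear CPM scale, 2696 of the 2701 called genes (99.8%) had the same sign.

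Called genes were sorted by the sizes of both MYC effects, an effect counting as moved at 1.5-fold. In 1643 genes (60.8% of those called, or 17.1% of those tested) the MYC effect was lost, that is moved without Zab and under 1.5-fold with it, 803 on the rising side and 840 on the falling side. In 609 genes (22.5%, or 6.33% of those tested) it was damped, moved on the same side in both but smaller with Zab, 266 rising and 343 falling. The median effect of lost genes was 1.06 without Zab and 0.22 with it on the rising side, and -1.35 and -0.17 on the falling side. Damped genes had medians of 1.81 and 0.78 on the rising side and of -2.35 and -0.89 on the falling side. Zab minus WT had the sign of MYC minus WT in 1585 of the lost and 573 of the damped genes. Zab+MYC minus MYC had the opposite sign in 1553 and 595. In lost genes the median of Zab minus WT was 0.55 (rising) and -0.58 (falling). Lost and damped thus compare 2 MYC effects and do not say which group moved. These differences share libraries with the interaction, so the counts are no separate support. The other called genes were 94 with an effect gained with Zab (41 rising, 53 falling), 59 with a reversed effect (20 that rose without Zab in size, 39 that fell), 6 with an enhanced effect and 290 (3.01% of those tested) with both effects under 1.5-fold. Forms are cut at a fold size, so genes near the limits change form with it. The small forms also turned on single libraries. Reversed genes numbered 99 to 103 without either Zab library or without Zab+MYC replicate 1, and gained genes numbered 59 without MYC replicate 1. Enhanced genes numbered 10 without WT replicate 2 or Zab replicate 2 and 11 without MYC replicate 2 or Zab+MYC replicate 1. Genes with both effects small numbered 179 without either MYC replicate and 186 without Zab+MYC replicate 2.

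**Figure D2:**
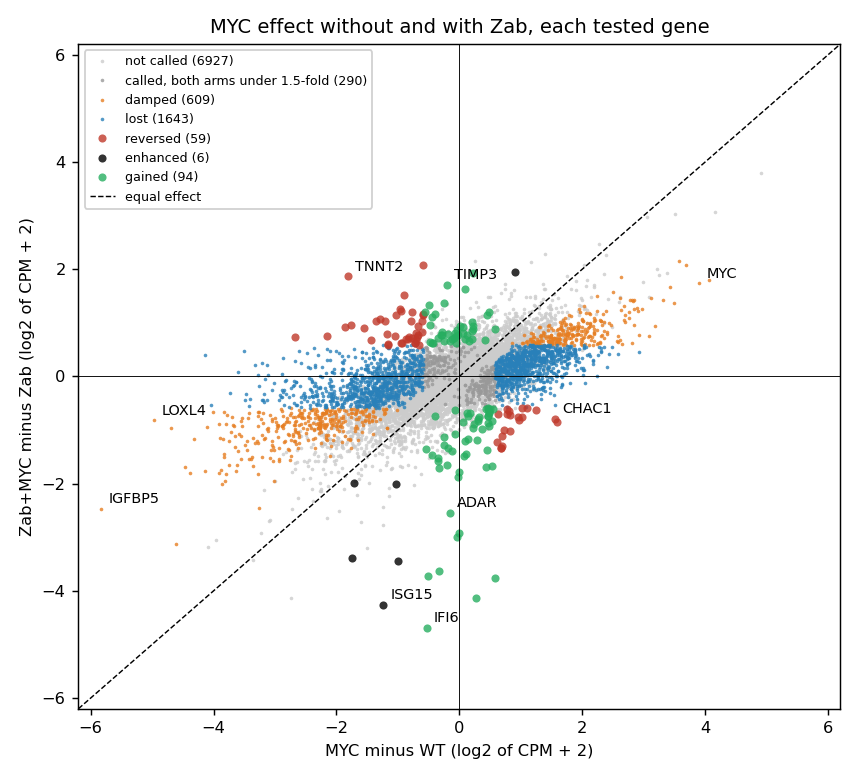
MYC effect with Zab (Zab+MYC minus Zab, vertical axis) against the MYC effect without Zab (MYC minus WT, horizontal axis), both in log2 of (CPM + 2), for each of the 9628 genes tested. Colours give the form of a called interaction, grey points are genes not called, and the dashed line marks equal effects. Most coloured points lie between the dashed line and the horizontal line at 0. All 609 damped genes do, while some of the 1643 lost genes lie past the horizontal line. Interferon-stimulated genes such as ISG15 and IFI6 lie far below both lines.

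Interferon-stimulated genes had the most negative median interaction of the 25 lists examined by limma, while ribosome biogenesis was lowest by edgeR (-1.03, beside -0.99) and by DESeq2 (-1.07, beside -1.03). Of 50 tested (76 listed), 24 were called below 0, beside 13.6% of all genes, and 1 above 0, with a median interaction of -1.15 beside 0.01 over all genes tested. Of the 24, 20 reached 2-fold. The median MYC effect of the list was -0.54 without Zab and -1.37 with it. Without the near-identical HLA, IFITM and OAS families, whose reads the counting could split, 17 of 38 were called below 0 and 1 above, with a median of -1.11. The list's levels were set apart by the Zab group, in which the median difference from WT was 1.37. The mean of Zab lay above that of WT in 46 of the 50 genes, and both Zab+MYC libraries lay below both Zab libraries in 49. A gene could pass the expression filter through the Zab libraries alone. IFI27 had a mean of 13.2 CPM in Zab and 0 in WT, MYC and Zab+MYC. OAS2 had 33.3 CPM in Zab, 0.469 in MYC and 0 in WT and Zab+MYC. For such genes the filter fixes the direction. The counts, calls and medians of this list are thus partly set in advance and give no separate support. Of the 24 genes called below 0, the Zab+MYC mean was below the WT mean in 11 and below 2 times the WT mean in 21.

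Promoters of 4 interferon-stimulated genes chosen as leading members of a form are printed first, as the 250 bases before the gene's start in RefSeq (GRCh38.p14). They are shown because each holds the core of an interferon response element, GAAA and GAAA with any 2 bases between them, written in capitals. The 4 are a selection, since HELZ2, also a leading member of a form, is not printed. The stretches are chr1:1013247-1013496 on the plus strand for ISG15, chr1:27672193-27672442 on the minus strand for IFI6, chr12:112938224-112938473 on the plus strand for OAS3, and chr1:78620198-78620447 on the plus strand for IFI44L.
ISG15: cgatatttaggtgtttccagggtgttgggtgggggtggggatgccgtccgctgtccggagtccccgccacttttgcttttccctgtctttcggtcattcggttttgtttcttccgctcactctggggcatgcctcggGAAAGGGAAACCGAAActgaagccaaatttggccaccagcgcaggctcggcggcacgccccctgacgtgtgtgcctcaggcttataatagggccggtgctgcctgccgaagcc
IFI6: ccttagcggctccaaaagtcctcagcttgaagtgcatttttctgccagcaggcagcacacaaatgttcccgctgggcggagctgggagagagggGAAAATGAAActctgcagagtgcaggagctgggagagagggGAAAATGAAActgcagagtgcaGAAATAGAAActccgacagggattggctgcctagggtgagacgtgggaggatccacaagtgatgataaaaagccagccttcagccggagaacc
OAS3: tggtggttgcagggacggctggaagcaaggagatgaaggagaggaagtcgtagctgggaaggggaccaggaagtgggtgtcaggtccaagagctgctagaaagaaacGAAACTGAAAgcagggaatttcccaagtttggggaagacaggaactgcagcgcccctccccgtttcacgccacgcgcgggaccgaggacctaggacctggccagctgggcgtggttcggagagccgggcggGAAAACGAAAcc
IFI44L: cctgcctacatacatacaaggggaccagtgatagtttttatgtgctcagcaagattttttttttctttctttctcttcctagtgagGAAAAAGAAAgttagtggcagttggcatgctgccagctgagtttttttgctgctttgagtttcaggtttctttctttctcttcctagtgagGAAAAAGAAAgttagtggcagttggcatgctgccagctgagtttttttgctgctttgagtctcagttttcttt
ISG15 has 2 such matches, which overlap, IFI6 has 3, and OAS3 and IFI44L have 2 each. Over both strands the element was found in 11 of the 20 matched promoters of interferon-stimulated genes called below 0 (55%), beside 2.19% of the 7851 matched promoters of genes tested and 3.07% of the 27305 promoters of the table. The list was drawn up as interferon-stimulated genes, and its members not called below 0 were not counted. The 55% therefore does not set called members apart from the rest of the list. A match is a stretch of letters and no measure of binding.

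ISG15, a ubiquitin-like protein attached to other proteins in the interferon response (chromosome 1 from 948877 to 949919, hg19), measured 55.4 and 53.9 CPM in WT, 16.4 and 29.1 with MYC, 845 and 905 with Zab, and 50.1 and 38.3 with both. The Zab libraries stand far above the other 6, and Zab+MYC is below WT. The MYC effect was -1.24 without Zab and -4.26 with it, an enhanced fall in size, and the interaction was -3.01 ± 0.25 (limma adjusted p = 6.2e-17). IFI6, a small protein of the endoplasmic reticulum and mitochondria, measured 3.77 and 6.34 CPM in WT, 2.81 and 2.79 with MYC, 118 and 118 with Zab, and 1.46 and 4.25 with both. Without Zab the MYC effect was -0.53 and with it -4.69, an interaction of -4.16 ± 0.57 (limma adjusted p = 1.2e-08). IFI44L, a cytoplasmic protein of the interferon response, went from 67.4 and 60.5 CPM in Zab to 2.92 and 2.84 in Zab+MYC, beside 1.26 and 2.11 in WT and 3.75 and 3.19 in MYC. In both genes Zab is apart, and the Zab+MYC values lie among or close to those of WT and MYC. The interaction of IFI44L was -4.33 ± 0.62 (limma adjusted p = 3.1e-08). OAS3, a synthetase of the RNA-degrading 2-5A pathway, measured 5.66 and 5.28 CPM in WT, 3.28 and 3.19 with MYC, 73.1 and 70.3 with Zab, and 4.38 and 2.84 with both, with an interaction of -3.22 ± 0.57 (limma adjusted p = 5.4e-06).

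OAS1, of the same enzyme family, measured 5.03 and 0 CPM in WT, 0 and 2.39 with MYC, 37.3 and 36.1 with Zab, and 0 and 2.84 with both. Its interaction of -3.30 ± 0.76 was called by limma (adjusted p = 0.00044), and DESeq2 gave it no adjusted p. HELZ2, a helicase co-activator, measured 32.7 and 39.6 CPM in WT, 8.43 and 10.4 with MYC, 166 and 149 with Zab, and 10.2 and 17 with both, so that both MYC-bearing groups lay below WT. The MYC effect was -1.74 without Zab and -3.38 with it (interaction -1.64 ± 0.38, limma adjusted p = 0.00045). IFITM3, a membrane protein that blocks virus entry, measured 215 and 217 CPM in WT, 269 and 313 with MYC, 860 and 832 with Zab, and 270 and 251 with both, with an interaction of -2.12 (limma adjusted p = 1.1e-24). IFITM3 was chosen after its values were seen.

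Other members were not called. IFIT1, which binds foreign RNA ends, had effects of -2.74 and -4.13 and an interaction of -1.39 that was not called (limma adjusted p = 0.1). PARP14, an ADP-ribosyltransferase, had effects of -1.87 and -1.86 and an interaction of 0.01 (limma adjusted p = 0.99). The member called above 0 was TRIM5, a restriction factor for retroviruses, with an interaction of 1.40 (limma adjusted p = 3.7e-05). IFIT1, PARP14, TRIM5 and, from the next list, DDX58 were chosen after their values were seen. Of 10 nucleic-acid sensing genes tested, 2 were called below 0 and 1 above, with a median of -0.50, and without ADAR 1 of 9 was called below and 1 above, with a median of -0.21. With 13.6% of all genes called below 0, counts this small do not set the list apart. DDX58, which encodes the RNA sensor RIG-I, measured 20.8 and 11.6 CPM in WT, 7.96 and 4.38 with MYC, 72.4 and 89.3 with Zab, and 12.7 and 24.1 with both. Its MYC effects of -1.14 and -2.08 gave an interaction of -0.93 ± 0.46 (limma adjusted p = 0.13). EIF2AK2, the RNA-activated kinase PKR, measured 74.2 and 57 CPM in WT, 40.3 and 55.3 with MYC, 160 and 130 with Zab, and 50.1 and 51.7 with both, with an interaction of -1.02 ± 0.26 (limma adjusted p = 0.0016). MAVS, the adaptor of the RNA sensors, was lowest in MYC (33.7 and 35.8 CPM, beside 69.1 to 95.6 in the other 6 libraries), with an interaction of 1.11 ± 0.25 (limma adjusted p = 0.00036).

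**Figure D3:**
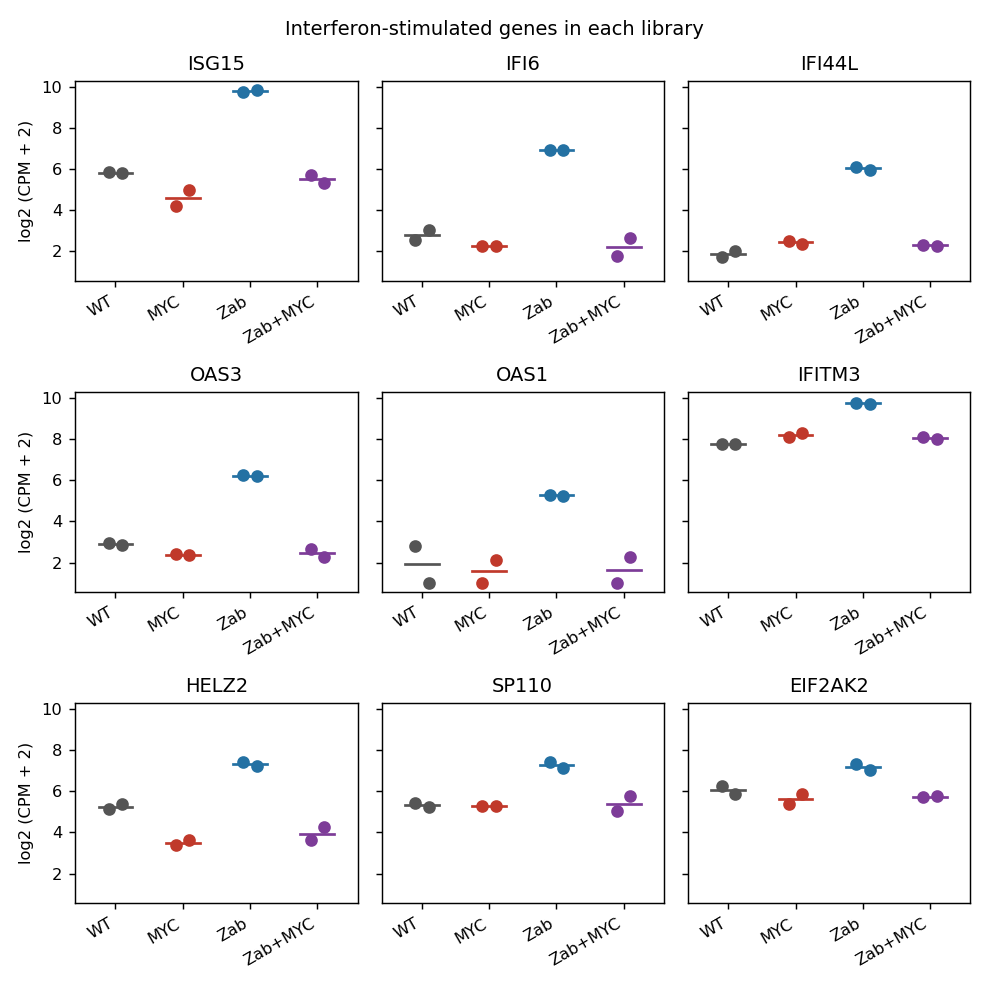
Levels of 9 interferon-stimulated or interferon-related genes in log2 of (CPM + 2) in each library, on 1 shared vertical axis. Points are libraries and short lines are group means. In every panel the 2 Zab libraries are the highest and the Zab+MYC libraries lie near the WT and MYC libraries.

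Genes of ribosome production and other MYC targets had smaller rises with Zab. Of 58 MYC core targets tested, 46 were called below 0 (79.3%, beside 13.6% of all genes) and 2 above (beside 14.5%). Of the 46, 27 reached 2-fold. The 58 had a median interaction of -0.93. Their median MYC effect was 1.61 without Zab and 0.52 with it. Of 80 ribosome biogenesis genes, 60 were called below 0 (75%, beside the same 13.6%) and 0 above, 39 by at least 2-fold. The 80 had a median of -1.0 and median effects of 1.63 and 0.58. The 60 were 28 damped and 32 lost. In both lists Zab alone stood above WT, by a median of 0.61 and 0.53, and Zab+MYC stood below MYC, by a median of -0.42 and -0.46, so that the smaller effect came with a higher start and a lower end.

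WDR43, a factor of the small-subunit processome (chromosome 2 from 29117533 to 29171085), measured 39 and 61.3 CPM in WT, 302 and 333 with MYC, 115 and 155 with Zab, and 214 and 194 with both. The 4 groups do not overlap and keep that order, WT, Zab, Zab+MYC, MYC. The MYC effect was 2.65 without Zab and 0.60 with it, and the interaction -2.05 ± 0.20 (limma adjusted p = 8.6e-14). NOP16, a nucleolar protein and MYC target, measured 52.8 and 62.8 CPM in WT, 427 and 422 with MYC, 153 and 146 with Zab, and 274 and 310 with both (interaction -1.88 ± 0.16, limma adjusted p = 5.2e-16). NOC3L, a large-subunit assembly factor, stood at 19.5 and 16.4, 89.9 and 84.8, 47.3 and 38.5, and 46.2 and 54.6 CPM in the same order of groups, so that Zab and Zab+MYC overlapped where WT and MYC did not. Its effect was 2.17 without Zab and 0.22 with it (interaction -1.94 ± 0.32, limma adjusted p = 8.7e-07). TAF1D, a subunit of the RNA polymerase I factor SL1, had effects of 1.33 and -0.42 (interaction -1.75 ± 0.29), and LTV1, a small-subunit assembly factor, effects of 1.73 and 0.06 (interaction -1.68 ± 0.37). HK2, hexokinase 2, measured 4.4 and 6.34 CPM in WT, 40.8 and 32.6 with MYC, 19.4 and 13.5 with Zab, and 13.1 and 25.5 with both, an effect lost with Zab (interaction -2.23 ± 0.49, limma adjusted p = 0.00025). LDHA, lactate dehydrogenase A, went the other way in the MYC core list, with effects of 0.58 and 0.88 and an interaction of 0.30 (limma adjusted p = 8.2e-05), and was named after its value was seen.

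Cytosolic ribosomal protein genes followed with smaller sizes. Of 78 tested, 67 were called below 0 (85.9%, beside 13.6% of all genes) and 3 above, 6 of the 67 by at least 2-fold. The median effect of the 78 was 0.47 without Zab and -0.01 with it (median interaction -0.55). RPL38, a large-subunit protein (chromosome 17 from 72199817 to 72206794), measured 360 and 405 CPM in WT, 1144 and 1086 with MYC, 833 and 802 with Zab, and 874 and 841 with both. Its groups do not overlap, but Zab and Zab+MYC are close together between WT and MYC. The interaction was -1.47 ± 0.09 (limma adjusted p = 6.4e-24). RPL23 and RPLP2 had interactions of -1.12 ± 0.07 and -1.09 ± 0.08. The 3 members called above 0 were RPL15 at 0.23, RPLP0 at 0.12 and RPS2 at 0.13, each a small difference, and they were named after their values were seen. Ribosomal protein genes have many near-identical pseudogenes, and how shared reads were assigned is not stated in the labels or headers.

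Translation factors and tRNA synthetases had 29 of 50 genes called below 0 (58%, beside 13.6% of all genes) and 2 above (median -0.57). EIF2B3, a subunit of the exchange factor that recharges eIF2, measured 39.6 and 19.5 CPM in WT, 135 and 150 with MYC, 58.1 and 53.8 with Zab, and 84.7 and 80.1 with both. Its rise of 2.27 without Zab was 0.54 with it (interaction -1.73 ± 0.28, limma adjusted p = 8e-07). EIF3J, a subunit of eIF3, was damped from 2.30 to 1.04 (interaction -1.26 ± 0.21). The call of EEF1E1, a part of the multi-synthetase complex, at -1.38 ± 0.39, ended with DESeq2, after thinning and without Zab replicate 1. Heat shock and chaperonin genes had 19 of 35 called below 0 (54.3%, beside the same 13.6%) and 2 above (median -0.53). FKBP4, a co-chaperone of HSP90, measured 279 and 252 CPM in WT, 1351 and 1379 with MYC, 450 and 448 with Zab, and 904 and 910 with both, with the groups apart in the order seen for WDR43 and an interaction of -1.34 ± 0.09 (limma adjusted p = 1.5e-20). DNAJC2, a ribosome-associated chaperone, was damped from 2.62 to 1.23 (interaction -1.39 ± 0.14). HSPB1, a small heat shock protein named after its value was seen, was 1 of the 2 called above 0, at 0.51 (limma adjusted p = 2.4e-14).

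Promoters of SLC7A5, a transporter of large amino acids, and of EIF2B3 are shown because they hold the E-box CACGTG, in capitals, in the 250 bases before the start (RefSeq, GRCh38.p14). They were picked for holding it, with values known. The stretches are chr16:87869508-87869757 and chr1:44986596-44986845, both on the minus strand.
SLC7A5: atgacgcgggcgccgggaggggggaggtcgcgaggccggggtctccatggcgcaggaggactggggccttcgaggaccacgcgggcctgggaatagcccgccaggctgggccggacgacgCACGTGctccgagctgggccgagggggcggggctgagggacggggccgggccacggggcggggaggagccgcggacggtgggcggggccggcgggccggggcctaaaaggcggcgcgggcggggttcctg
EIF2B3: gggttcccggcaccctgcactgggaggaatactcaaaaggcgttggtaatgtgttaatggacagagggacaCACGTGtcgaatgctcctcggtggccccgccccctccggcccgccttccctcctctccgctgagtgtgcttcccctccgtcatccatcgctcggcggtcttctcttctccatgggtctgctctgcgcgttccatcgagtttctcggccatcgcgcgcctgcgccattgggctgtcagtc
The E-box was found in 6 of 36 matched promoters of MYC core targets called below 0 (16.7%) and in 9 of 54 of ribosome biogenesis genes called below 0 (16.7%), beside 9.49% of genes tested and 6.49% of all promoters of the table. It was in 13.3% of damped and 13% of lost genes on the rising side. On the falling side it was in 5.73% of damped and 8.06% of lost genes. Gained genes had it in 11.8% (rising) and 15.6% (falling), and called genes with both effects small in 9.22% and 12.1%. Lists called above 0 differed, with the E-box in 0 of 22 matrix genes and 5 of 34 mitosis genes (14.7%). The sides are thus not cleanly split by the E-box. Runs of at least 8 bases of alternating CG, or of CA or TG, which are letters prone to the Z form, were in 9.57% of promoters of genes tested, 12.3% of damped rising genes, 5.73% of damped falling genes, 7.24% of lost rising genes and 9.4% of lost falling genes. A window without a match says only that these letters are not in it.

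SLC7A5 measured 81.8 and 98.8 CPM in WT, 427 and 380 with MYC, 192 and 169 with Zab, and 292 and 284 with both, an effect damped from 2.14 to 0.67 (interaction -1.47 ± 0.15, limma adjusted p = 1.7e-12). Its list, the integrated stress and unfolded protein response, had 12 of 34 genes called below 0 (35.3%, beside 13.6% of all genes). The 6 called above 0 make a share close to the 14.5% of all genes. CHAC1, which breaks down glutathione and is a target of the stress factor ATF4, measured 25.8 and 35.9 CPM in WT, 86.2 and 100 with MYC, 141 and 158 with Zab, and 93.4 and 78 with both. Zab was the highest group, and Zab+MYC overlapped MYC. The MYC effect was 1.55 without Zab and -0.79 with it (interaction -2.34 ± 0.24, limma adjusted p = 1.5e-12). ATF5, a transcription factor of the same response, was damped from 2.20 to 0.83 (interaction -1.37 ± 0.23). Among nuclear genes of oxidative phosphorylation, 28 of 71 were called below 0 (39.4%, beside 13.6% of all genes) and 1 above (median -0.29). The 28 included NDUFB2 at -1.03 ± 0.20, NDUFA7 at -0.83 ± 0.17 and NDUFAB1 at -0.83 ± 0.18, all 3 of respiratory complex I and all lost. On the deposited scale 13 of the 71 were called below 0 and 8 above. NDUFAF4, an assembly factor of complex I, led the damped rising genes, at 16.4 and 11.6 CPM in WT, 142 and 122 with MYC, 31.5 and 53.2 with Zab, and 68.1 and 72.3 with both (interaction -2.33 ± 0.31, limma adjusted p = 5.2e-09).

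**Figure D4:**
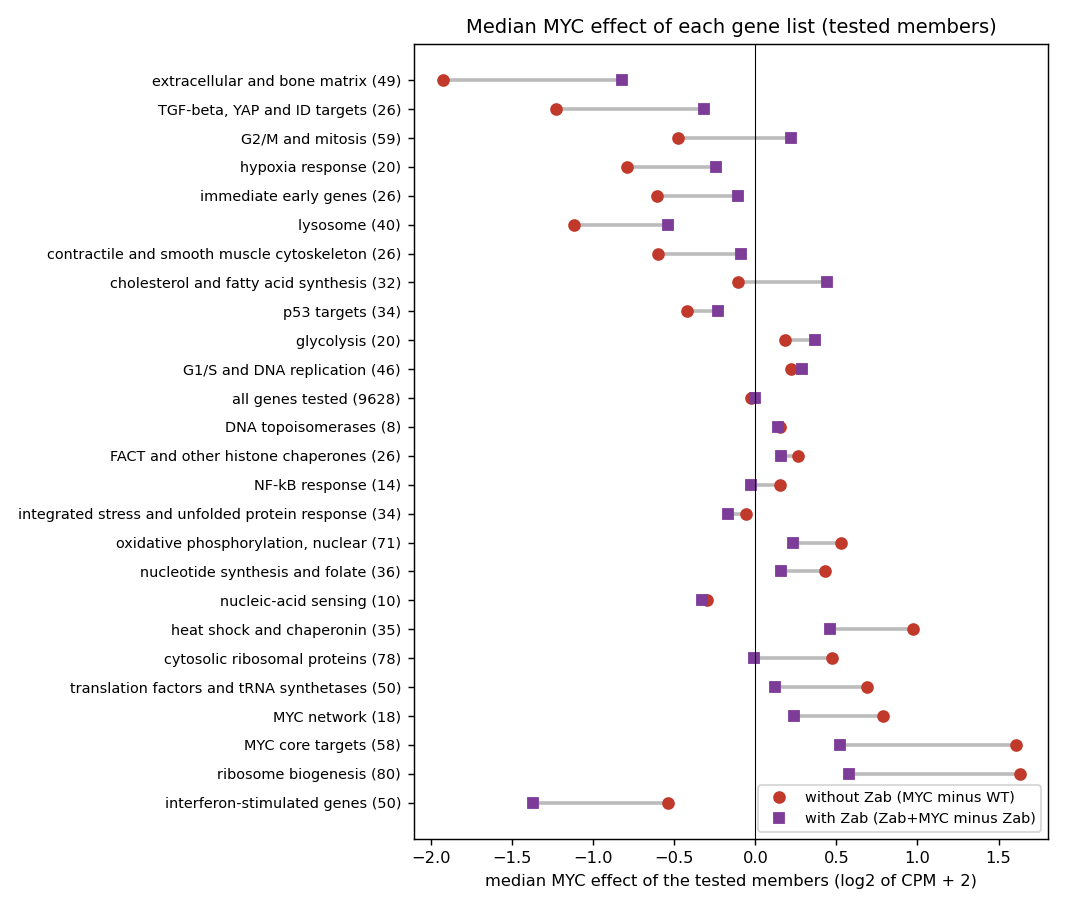
Median MYC effect, in log2 of (CPM + 2), of the tested members of 25 gene lists and of all genes tested, without Zab (circles) and with Zab (squares). Numbers in brackets are members tested, and lists are ordered by their median interaction. Squares lie nearer to 0 than circles for MYC core targets, ribosome biogenesis and matrix genes, and farther from 0 for interferon-stimulated genes.

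Genes of the extracellular and bone matrix had falls that were smaller with Zab. Of 49 tested, 33 were called above 0 (67.3%, beside 14.5% of all genes) and 0 below, 25 by at least 2-fold. The 49 had a median interaction of 1.07 and median MYC effects of -1.93 without Zab and -0.82 with it. Of the 33, 21 were damped, 11 lost and 1 gained. Summed markers of the mesenchymal lineage, which share COL1A1, SPARC and other genes with this list, moved in the same libraries, at 10585 to 10767 CPM in WT, 5657 to 5828 in MYC, 8902 to 9305 in Zab and 7988 to 8102 in Zab+MYC. Their part in the result was not tested. IGFBP5, an IGF-binding protein of bone matrix (chromosome 2 from 217536828 to 217560272), measured 898 and 891 CPM in WT, 15.9 and 11.9 with MYC, 137 and 107 with Zab, and 28.7 and 14.2 with both. WT is far above all others, Zab is intermediate, and MYC and Zab+MYC overlap. The effect was -5.83 without Zab and -2.46 with it (interaction 3.36 ± 0.27, limma adjusted p = 1.2e-17). LOXL4, a lysyl oxidase-like enzyme of collagen cross-linking, measured 95.6 and 70.2 CPM in WT, 0 and 1.59 with MYC, 22.9 and 36.7 with Zab, and 19 and 12.8 with both, and had the highest positive interaction among the genes named here, 4.15 ± 0.49 (limma adjusted p = 1e-10). OLFML3, a secreted glycoprotein, had an interaction of 3.73 ± 0.58 (limma adjusted p = 2.9e-07). COL1A1, the main collagen chain of bone, measured 1091 and 1183 CPM in WT, 110 and 123 with MYC, 827 and 775 with Zab, and 220 and 231 with both (interaction 1.45, limma adjusted p = 1.1e-17). FN1, fibronectin, had effects of -3.09 and -0.73 (interaction 2.36, limma adjusted p = 9.8e-18). COL1A1 and FN1 were named after their values were seen.

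Targets of TGF-beta, YAP and BMP signalling, contractile genes and immediate early genes shared this side. Of 26 TGF-beta, YAP and ID targets, 13 were called above 0 (50%, beside 14.5% of all genes) and 1 below (median 0.80). BMP4, a bone-forming ligand, measured 83 and 91.9 CPM in WT, 9.37 and 11.9 with MYC, 35.8 and 31.8 with Zab, and 35 and 29.8 with both. Its Zab and Zab+MYC libraries overlap, so the effect of -2.83 without Zab was lost (interaction 2.77 ± 0.36, limma adjusted p = 2.3e-09). ANKRD1, a target of YAP, was lowest in MYC, at 6.09 and 1.19 CPM beside 12.2 to 29.2 in the other 6 libraries (interaction 2.92 ± 0.53). SMAD6, an inhibitor of BMP signalling, had an interaction of 2.52 ± 0.61, with Zab and Zab+MYC both near the MYC level. Its Zab libraries stood at only 2.87 and 7.95 CPM, and DESeq2 gave it no adjusted p. Of 26 contractile genes, 13 were called above 0 (50%, beside the same 14.5%) and 0 below (median 0.44). MYL6, a myosin light chain, measured 289 and 295 CPM in WT, 48.7 and 49.4 with MYC, 232 and 253 with Zab, and 154 and 160 with both, so that MYC stood apart below the other groups (interaction 1.91 ± 0.17, limma adjusted p = 3.6e-15). MYL9 and TPM1, also of the contractile apparatus, had interactions of 1.75 ± 0.33 and 1.56 ± 0.22. Of 26 immediate early genes, 11 were called above 0 (42.3%, beside 14.5%) and 3 below (beside 13.6% of all genes), with a median of 0.56. IER3, an early response gene, measured 347 and 381 CPM in WT, 79.6 and 90.8 with MYC, 118 and 99 with Zab, and 110 and 119 with both, where Zab alone was already low (interaction 2.15 ± 0.18, limma adjusted p = 2.8e-16). EGR1, a zinc finger transcription factor, was damped from -3.55 to -1.12 (interaction 2.43 ± 0.30). FOS, a subunit of AP-1, was called at 2.23 ± 0.54 by limma (adjusted p = 0.00092) and not by DESeq2 (adjusted p = 0.06).

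Cell cycle genes split by phase. Of 59 genes of G2/M and mitosis, 39 were called above 0 (beside 14.5% of all genes) and 0 below, with a median interaction of 0.66. Their median MYC effect was -0.48 without Zab and 0.22 with it, and their median in Zab minus WT was -0.60, so that Zab alone and MYC alone both stood below WT in size. CCNB2, a mitotic cyclin, measured 103 and 109 CPM in WT, 40.3 and 34.6 with MYC, 48.8 and 50.1 with Zab, and 45.7 and 60.3 with both. WT is above the other 6 libraries, and Zab and Zab+MYC overlap (interaction 1.54 ± 0.28, limma adjusted p = 8.6e-06). DLGAP5, a spindle protein, stood at 160 and 129, 68.4 and 67.3, 68.8 and 70.9, and 95.9 and 93.6 CPM in WT, MYC, Zab and Zab+MYC (interaction 1.49 ± 0.22, limma adjusted p = 1.1e-07). CDC25C, the phosphatase that starts mitosis, had effects of -2.27 and 0.01 (interaction 2.28 ± 0.51). BIRC5, survivin, stood at 265 and 269 CPM in Zab, below the other 6 libraries, with an interaction of 0.65 (limma adjusted p = 5.6e-06), and was named after its values were seen. Of 46 genes of G1/S and DNA replication, 5 were called above 0 and 4 below (median 0.06), a share of 10.9% above 0 that is below the 14.5% of all genes and was 6.52% without MYC replicate 1. The calls of POLA2 at 1.21 ± 0.32 and GINS2 at 1.16 ± 0.28, both replication factors, ended with DESeq2, and that of POLE2, a polymerase epsilon subunit, at -0.82 ± 0.30, ended with DESeq2, with 2 scalings, without a filter and without any of 5 libraries.

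Targets of p53 had 7 of 34 genes called above 0 (20.6%, beside 14.5% of all genes, and 12.1% with DESeq2) and 3 below (median 0.29), and on the deposited scale 12 above and 2 below. TP53I3, an oxidoreductase induced by p53, measured 118 and 129 CPM in WT, 13.6 and 9.95 with MYC, 112 and 116 with Zab, and 62.3 and 60.3 with both. WT and Zab are alike in level, and the fall in size was 3.20 on the log2 scale without Zab and 0.87 with it (interaction 2.32 ± 0.28, limma adjusted p = 1.3e-10). DDB2, a DNA damage sensor, and PLK2, a polo-like kinase, were lost at 1.35 ± 0.30 and 0.99 ± 0.22. CDKN1A, the cell cycle inhibitor p21, named after its values were seen, was not called, with effects of -0.66 and -0.46 and an interaction of 0.20 (limma adjusted p = 0.24).

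Metabolic lists differed. Of 20 hypoxia response genes, 8 were called above 0 (40%, beside 14.5% of all genes, and 22.2% with DESeq2) and 1 below (median 0.56). DDIT4, an inhibitor of mTOR signalling, measured 90.6 and 114 CPM in WT, 19.7 and 19.1 with MYC, 31.5 and 39.1 with Zab, and 26.3 and 34 with both. WT stands above the other 6 libraries, and the effect of -2.27 without Zab was -0.22 with it (interaction 2.05 ± 0.34, limma adjusted p = 1e-06). BNIP3L, a mitophagy receptor, and NDRG1, a stress-induced protein, had interactions of 1.95 ± 0.34 and 1.85 ± 0.33. Glycolysis was mixed, with 7 of 20 above 0 (35%, or 20% without WT replicate 2) and 5 below. PFKFB3, which makes the activator of phosphofructokinase, at -2.08 ± 0.51, and SLC2A3, a glucose transporter, at 1.89 ± 0.48, both lost their call with DESeq2, while ENO2, neuronal enolase, at 1.5 ± 0.32 did not. PKM, pyruvate kinase, had an interaction of 0.55 (limma adjusted p = 1.4e-16) with effects of -0.52 and 0.02, and was named after its value was seen. Of 32 genes of cholesterol and fatty acid synthesis, 7 were called above 0 (21.9%, beside 14.5% of all genes, and 10.3% with DESeq2) and 2 below (median 0.39). FADS2, a fatty acid desaturase, measured 225 and 227 CPM in WT, 29 and 37 with MYC, 146 and 143 with Zab, and 121 and 135 with both, so that MYC was apart below the rest (interaction 2.54 ± 0.21, limma adjusted p = 2.7e-17). FADS1, its neighbour, at 1.03 ± 0.17, overlaps FADS2 on the other strand, and the labels and headers do not say whether strand was used. FDFT1, squalene synthase, had an interaction of 1.04 ± 0.20.

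Lysosomal genes had 16 of 40 called above 0 (beside 14.5% of all genes) and 1 below. Their median interaction was 0.46, beside median effects of -1.12 and -0.54. CTSB, the protease cathepsin B, measured 1488 and 1499 CPM in WT, 364 and 332 with MYC, 873 and 871 with Zab, and 494 and 461 with both. Its 4 groups are well apart, and the effect was damped from -2.10 to -0.87 (interaction 1.23 ± 0.09, limma adjusted p = 2.4e-19). The call of ATP6AP1, a subunit of the proton pump, at 1.41 ± 0.38, ended with DESeq2, after thinning and without Zab+MYC replicate 2. The call of ARSA, arylsulfatase A, at 1.81 ± 0.57, ended without a filter and without any of WT replicate 2, MYC replicate 2, Zab replicate 2 or Zab+MYC replicate 2. Nucleotide synthesis had 11 of 36 genes below 0 (30.6%, beside 13.6% of all genes) and 6 above (median -0.31). The share above 0 is close to the 14.5% of all genes. TK1, thymidine kinase, measured 64.2 and 97.7 CPM in WT, 29 and 19.1 with MYC, 41.6 and 27.5 with Zab, and 38 and 28.4 with both (interaction 1.62 ± 0.35, limma adjusted p = 0.00021). The calls of DHODH and PFAS, enzymes of pyrimidine and purine synthesis, at -1.65 ± 0.48 and -1.37 ± 0.53, were not stable. That of DHODH ended with DESeq2 and without MYC replicate 1 or Zab replicate 1, and that of PFAS ended with edgeR, with 2 scalings, without a filter, after thinning and without any library other than WT replicate 2.

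Partners of MYC, histone chaperones, topoisomerases and the NF-kB response were smaller lists. Of 18 MYC network genes, 9 were called below 0 (beside 13.6% of all genes) and 1 above (median -0.61). RUVBL1, an ATPase of chromatin complexes that MYC recruits, measured 277 and 261 CPM in WT, 695 and 626 with MYC, 483 and 447 with Zab, and 584 and 560 with both (interaction -0.99 ± 0.11, limma adjusted p = 4.6e-12). The member above 0 was MXD4, a MAX partner that opposes MYC, at 210 and 225, 42.2 and 51.4, 156 and 174, and 82.7 and 69.5 CPM in the same order, damped from -2.18 to -1.10 (interaction 1.08 ± 0.21, limma adjusted p = 3.2e-05). The call of MYCBP2, a ubiquitin ligase, at -0.95 ± 0.28, ended with DESeq2 and after thinning. Among 26 FACT and other histone chaperone genes, 6 were called below 0 (23.1%, beside 13.6% of all genes) and 4 above. The median of -0.08 turned to 0.02 with library totals and to 0.13 on the deposited scale. NCL, nucleolin, measured 155 and 139 CPM in WT, 801 and 845 with MYC, 265 and 260 with Zab, and 514 and 512 with both (interaction -1.51 ± 0.12, limma adjusted p = 7.6e-18), and NPM3, a nucleoplasmin, was lost at -1.89 ± 0.38. ASF1B, a chaperone of newly made histones, was lost on the falling side, from -2.39 to -0.38 (interaction 2.0 ± 0.25, limma adjusted p = 7.5e-10).

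Of 8 topoisomerase genes, 2 were called above 0 and 2 below (25%, but 0% without WT replicate 2, MYC replicate 2 or Zab+MYC replicate 2 and 12.5% without WT replicate 1, MYC replicate 1 or Zab replicate 1), and the median of -0.03 turned to 0.06 with library totals and 0.19 on the deposited scale. Over all genes, 14.5% were called above 0 and 13.6% below, and counts of 2 do not set so small a list apart. TOP2A, the topoisomerase of dividing cells, measured 396 and 374 CPM in WT, 192 and 181 with MYC, 239 and 234 with Zab, and 221 and 211 with both (interaction 0.91 ± 0.14, limma adjusted p = 2e-07). The calls of TOP2B at 1.03 ± 0.30 and TOP3A at -0.71 ± 0.25 ended with DESeq2, after thinning and without single libraries, for TOP2B Zab replicate 1 or Zab+MYC replicate 1, and for TOP3A WT replicate 2, MYC replicate 2 or Zab+MYC replicate 2. The TOP2B call also ended without a filter and the TOP3A call with 2 scalings. Of 14 NF-kB response genes, 2 were called below 0 (14.3%, close to the 13.6% of all genes, and 7.14% without WT replicate 2, MYC replicate 2 or Zab+MYC replicate 1) and 1 above, a median of -0.14 that turned to 0.08 on the deposited scale. NFKB1, the precursor of p50, was lost from 1.64 to 0.45 (interaction -1.19 ± 0.25, limma adjusted p = 0.00016). The calls of TNFAIP2 at 1.33 ± 0.36 and of IL32, a cytokine, at -1.02 ± 0.38 ended with DESeq2. The IL32 call also ended with 2 scalings, without a filter, after thinning and without WT replicate 2, MYC replicate 2, Zab replicate 1 or Zab+MYC replicate 1.

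The reversed, gained and enhanced forms were few, at 0.613%, 0.976% and 0.0623% of genes tested. TNNT2, a cardiac troponin (chromosome 1 from 201328142 to 201346808), measured 11.3 and 10 CPM in WT, 0.937 and 2.39 with MYC, 11.5 and 7.34 with Zab, and 37.5 and 40.4 with both. WT and Zab overlap, MYC is lowest and Zab+MYC highest, so that the effect was -1.82 without Zab and 1.87 with it (interaction 3.69 ± 0.56, limma adjusted p = 1.8e-07). TNNT2 was counted on 4 transcripts over the libraries. SMIM3, a small membrane protein, measured 42.2 and 29.6 CPM in WT, 8.43 and 9.56 with MYC, 10 and 11 with Zab, and 20.9 and 24.1 with both, where each factor alone was below WT and the pair lay between (interaction 2.73 ± 0.47, limma adjusted p = 3e-06). GAS2L3, a cytoskeletal linker, and ZNF114, a zinc finger protein, had interactions of 2.23 ± 0.40 and 2.36 ± 0.53 in the same sense. Besides CHAC1, CNOT4, a ubiquitin ligase tied to the CCR4-NOT complex, reversed from 1.59 to -0.85 (interaction -2.44 ± 0.53) and was counted on 5 transcripts. CERS1, a ceramide synthase, and GDF1, a growth factor, come from 1 shared transcript with identical values (interaction -2.01 ± 0.45, limma adjusted p = 0.00034), and count as 1 observation.

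Among gained effects on the rising side, MYOF, myoferlin of membrane repair, measured 24.5 and 20.6 CPM in WT, 15.5 and 15.1 with MYC, 22.2 and 20.2 with Zab, and 58.4 and 53.9 with both. Only the Zab+MYC libraries lay above 25 CPM (interaction 1.83 ± 0.40, limma adjusted p = 0.0002). TIMP3, an inhibitor of matrix proteases, stood at 38.4 and 54.4, 39.4 and 39.4, 14.3 and 15.9, and 47.2 and 61.7 CPM in WT, MYC, Zab and Zab+MYC. Here Zab was the group apart, below the rest (interaction 1.92 ± 0.35, limma adjusted p = 1.1e-05). CALB2, a calcium-binding protein, was highest in Zab+MYC at 112 and 131 CPM, beside 48.6 to 75.3 elsewhere (interaction 1.05 ± 0.24), and LPIN1, a phosphatidate phosphatase, was lowest in Zab (interaction 0.97 ± 0.22). The 6 enhanced genes included ISG15, HELZ2 and IFIT3, all interferon-stimulated, with MAP1B and DUSP2. DUSP2, a phosphatase of MAP kinases, was the 1 enhanced on the rising side, at 78.6 and 77.1 CPM in WT, 153 and 143 with MYC, 12.9 and 30.6 with Zab, and 85.6 and 80.8 with both (interaction 1.04, limma adjusted p = 0.0033). MAP1B, a microtubule-associated protein, had effects of -1.72 and -2.0, and its interaction of -0.28 was small (limma adjusted p = 0.011). Of the 6, ISG15 and HELZ2 were also called by edgeR, by DESeq2 and in every fit without 1 library, and the other 4 were not. IFIT3, MAP1B and DUSP2 were named after their values were seen.

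Of the remaining leading genes, RGS16, a brake on G protein signalling, was damped from 4.06 to 1.79 (interaction -2.26 ± 0.42), with 2.52 and 8.45 CPM in WT and 109 and 116 in MYC, and NAT8L, the enzyme that makes N-acetylaspartate, from 3.19 to 0.93 (interaction -2.26 ± 0.46). CLIP3, a microtubule linker, was damped on the falling side from -4.01 to -0.66 (interaction 3.35 ± 0.36). SCARA3, a scavenger receptor, measured 184 and 184 CPM in WT, 14.5 and 16.7 with MYC, 53.8 and 47.1 with Zab, and 32.1 and 42.5 with both, and lost an effect of -3.41 (interaction 2.98 ± 0.30, limma adjusted p = 2.6e-13). All 4 groups are apart in SCARA3, with WT highest and MYC lowest. IMPA2, an inositol phosphatase, FAM20C, a kinase of secreted proteins of bone and teeth, and SNCG, gamma-synuclein, also lost falls. Their interactions were 3.41 ± 0.50, 3.15 ± 0.53 and 3.14 ± 0.57. Unlike in SCARA3, their Zab and Zab+MYC libraries overlapped. On the rising side SH2D5, an adaptor, CECR2, a chromatin reader, and GALNT18, a glycosyltransferase, lost their effects at -2.47 ± 0.49, -2.23 ± 0.56 and -2.02 ± 0.45. SH2D5 stood at 20.8 and 15.9 CPM in Zab beside 2.52 and 2.11 in WT, so its level was already higher with Zab alone.

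**Figure D5:**
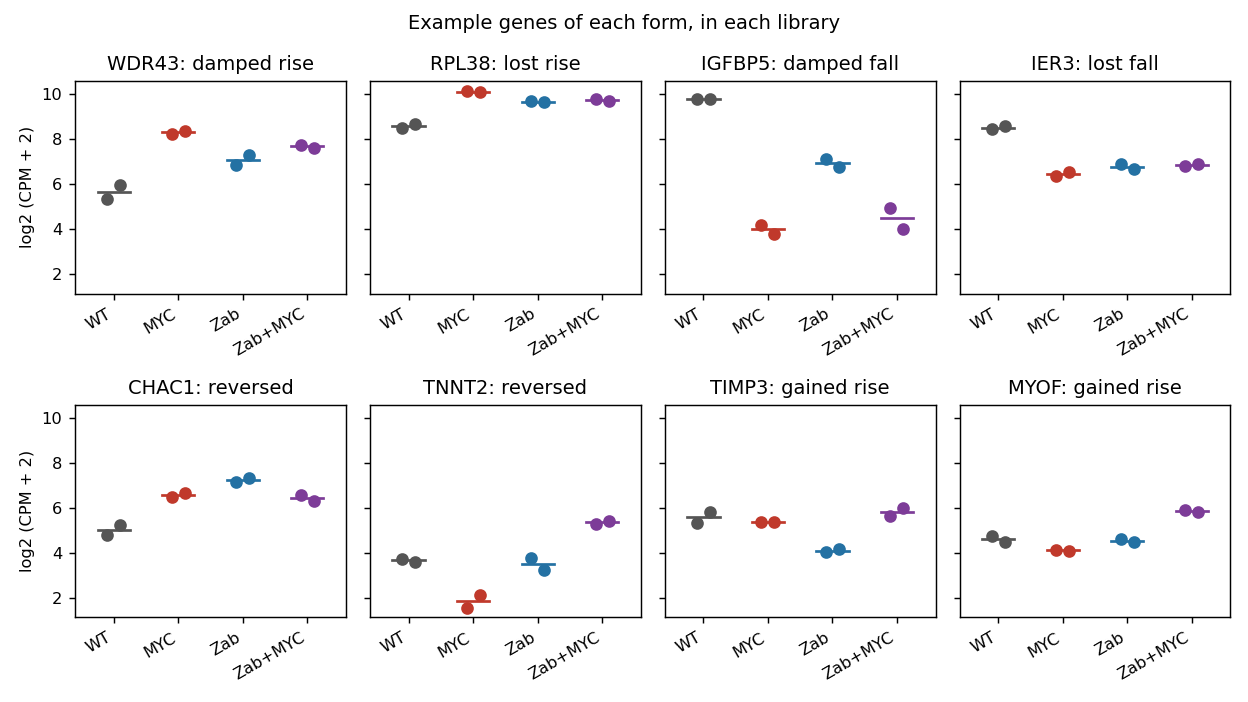
Levels of 8 example genes in log2 of (CPM + 2) in each library, on 1 shared vertical axis, titled with the form of their interaction. Points are libraries and short lines are group means. WDR43 and IGFBP5 keep a smaller MYC effect with Zab, RPL38 and IER3 keep little of it, CHAC1 and TNNT2 turn over, and TIMP3 and MYOF differ between Zab and Zab+MYC more than between WT and MYC.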

How the data were processed

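Per the labels' protocols, U2OS RNA was taken up in Trizol and libraries were prepared with a kit from Abclonal. Each library has 1 table deposited by the authors, which lists an exon signal per gene. Those exon values came from HOMER (analyzeRepeats, raw mode, a single transcript retained for every symbol) over coding genes of RefSeq on hg19, per the file headers, which also show a tag folder whose name mentions a spike-in. The submitters' processing notes list Trim Galore 0.6.6, STAR without a version, HOMER 4.11.1, and dm6 next to hg19 without saying what each was for. No source used here gives the factor behind the deposited signal. All values (100%) were whole multiples of 1 step per library within 0.1 step. A tag was taken as 2 steps, an assumption, which gave 0.315 to 0.537 deposited units per tag. The transcript kept differed between libraries for 50.6% of genes, which can change a gene's counted exons.

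Tags were scaled to CPM with TMM factors, genes were kept with edgeR's filterByExpr, and log2(CPM + 2) of all 8 libraries was fitted in limma 3.58.1 with the trend option and 1 mean per group (4 residual degrees of freedom, two-sided, Benjamini-Hochberg over 9628 genes). The log scale with 2 CPM added understates changes of low genes. Alternatives were edgeR 4.0.16 (common dispersion 0.00018) and DESeq2 1.42.0 on recovered tags, other scalings, filters and pseudocounts, thinning to the smallest library, the replicate number as a block, and each library left out. The calculations were tested on simulated data. Values of 1 library are CPM, and ± gives the SE of an interaction from limma, with 2 libraries per group. Named were MYC, ADAR, SUPT16H, SSRP1, up to 4 genes per form and side with the largest interaction (called also by edgeR, DESeq2 and in all 8 fits without 1 library, mean at least 10 CPM), and up to 3 called members per list, 103 in all. The values of 1 gene are not reported here. Genes outside this rule are marked as chosen after their values were seen. The gene lists, the members and the forms were chosen with earlier results of these data known. Gene positions (hg19) are those of the deposited tables, counted from 1, and promoters are RefSeq's on GRCh38.p14, matched by symbol for 7851 genes (81.5%). Work was done in R 4.3.3 and Python 3.11.15 (with scipy 1.17.1, pandas 2.3.3, numpy 2.4.6 and, for figures, matplotlib 3.10.9).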

Additional observations from a re-analysis of the deposited data

Results flagged for a closer look

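Each interaction below was called by the test of the difference between both MYC effects (limma) and was 4-fold or larger, that is at least 2 on the log2 scale in either direction. This limit was set after the results were seen, since all but 2 of the 103 named genes pass the test itself. With 2 libraries per group, no search for a library far from its group could be made.

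Below 0, MYC itself had -2.17 and ADAR -2.39. Among interferon-stimulated genes the values were -4.33 for IFI44L, -4.16 for IFI6, -3.30 for OAS1, -3.22 for OAS3 and -3.01 for ISG15. Genes whose rise was damped or lost were SH2D5 at -2.47, NDUFAF4 at -2.33, RGS16 at -2.26, NAT8L at -2.26, HK2 at -2.23, CECR2 at -2.23, PFKFB3 at -2.08, WDR43 at -2.05 and GALNT18 at -2.02. Reversed genes were CNOT4 at -2.44, CHAC1 at -2.34, and CERS1 and GDF1, which share their reads, at -2.01 each.

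Above 0, matrix genes and others with a damped or lost fall were LOXL4 at 4.15, OLFML3 at 3.73, IMPA2 at 3.41, IGFBP5 at 3.36, CLIP3 at 3.35, FAM20C at 3.15, SNCG at 3.14 and SCARA3 at 2.98. Signalling and early response genes were ANKRD1 at 2.92, BMP4 at 2.77, SMAD6 at 2.52, EGR1 at 2.43, FOS at 2.23 and IER3 at 2.15. Further genes were FADS2 at 2.54, TP53I3 at 2.32, CDC25C at 2.28, DDIT4 at 2.05 and ASF1B at 2.0. Reversed genes were TNNT2 at 3.69, SMIM3 at 2.73, ZNF114 at 2.36 and GAS2L3 at 2.23. The calls of FOS and PFKFB3 ended with DESeq2, and that of GDF1 after thinning. DESeq2 gave no adjusted p to OAS1 or SMAD6.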

How the results depend on the processing

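No called interaction of a named gene changed sign under the 13 other settings, where covered, or in the 8 fits without 1 library. SUPT16H and SSRP1, the named genes that were not called, were not part of this comparison. Of the calls of named genes, DESeq2 kept 82 of the 97 to which it gave an adjusted p, edgeR 100, thinning 93, and the fits without 1 library 96 to 100. Numbers did not pair the libraries (correlations of -0.022 to 0.014 between libraries of the same number), and the fit with a replicate block called 2754 genes and kept every named call. The count of 2701 called genes was 1114 with DESeq2, 1509 among genes counted on the same transcript in all libraries and 1418 with a 2-fold limit. Calls above 0 (1394) numbered 499 and 694 with the first 2 of these, and calls below 0 (1307) numbered 615 and 815, and 831 on the deposited scale. Damped genes (609) numbered 305 with DESeq2, 348 on the same transcript, 402 with the 2-fold limit, and 1143 and 161 where an effect counted as moved at a lower fold and at 2-fold. Lost genes (1643) numbered 684, 899 and 885 with the first 3 of these. Reversed genes (59) numbered 109 without a filter, 94 with a filter of 5 CPM, 29 with 5 CPM added, 22 with DESeq2, 38 on the same transcript, 226 at the lower fold and 5 at 2-fold, and 53 to 103 without 1 library. Enhanced genes (6) numbered 10 with library totals, 11 with 5 CPM added, 10 after thinning, 19 at the lower fold, 19 where each effect was called by limma, and 6 to 11 without 1 library. Gained genes (94) numbered 163 on the deposited scale, 19 with DESeq2, 44 on the same transcript, 57 at 2-fold, 61 with the 2-fold limit, and 59 to 138 without 1 library. Called genes with both effects small (290) numbered 192 without a filter, 80 with DESeq2, 176 on the same transcript, 54 at the lower fold, 921 at 2-fold, 57 where effects were called by limma, 7 with the 2-fold limit, and 179 to 253 without 1 library. The slope of 0.426 was 0.413 on the deposited scale, 0.436 from replicate 2 libraries and 0.409 to 0.456 without 1 library. DESeq2 gave no adjusted p to 1307 genes, and list members without one are left out of its percents. With DESeq2 the percent of list members called fell for oxidative phosphorylation (39.4 to 25.4), heat shock (54.3 to 35.3), glycolysis (35.0 to 15.0), hypoxia (40 to 22.2), NF-kB (14.3 to 7.14), contractile (50 to 24.0), immediate early (42.3 to 25), p53 (20.6 to 12.1), G1/S (10.9 to 0.0), G2/M (66.1 to 32.2), cholesterol (21.9 to 10.3), lysosome (40 to 25.8), MYC network (50 to 22.2) and topoisomerase genes (25 to 0.0). On the deposited scale it was 18.3 for oxidative phosphorylation, 7.14 for NF-kB, 35.3 for p53, 26.1 for G1/S, 33.3 for the MYC network and 0.0 for topoisomerases, and with library totals 7.14 for NF-kB, 17.4 for G1/S and 0.0 for topoisomerases. Without a filter it was 7.14 for NF-kB and 12.5 for topoisomerases, which were also at 12.5 with edgeR. After thinning it was 7.14 for NF-kB, 12.1 for p53, 33.3 for the MYC network and 12.5 for topoisomerases. On the same transcript it was 25 for hypoxia, 0.0 for NF-kB, 77.8 for contractile, 19.0 for G1/S, 40 for cholesterol and 37.5 for histone chaperone genes. Without 1 library it was 20 to 35.0 for glycolysis, 7.14 to 14.3 for NF-kB, 6.52 to 10.9 for G1/S and 0.0 to 37.5 for topoisomerases. The cause of these changes was not tested, except that same-transcript counts cover fewer genes. The count of genes at an unadjusted limma p under 0.05 was 3617. This count, the slopes by replicate, the lists without families or ADAR and percents in place of counts for lists were added after the data were seen. The depth of 686992 to 1326166 exon tags limits genes of a few CPM, where 1 library holds few tags.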
